A study of Mus musculus with 34 samples.

Results

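Cholesterol biosynthesis and its control by the sterol regulatory element binding proteins (SREBPs) was followed through 28 genes in astrocytes of the mouse cortex. The genes were taken by name for their known roles, with earlier results of these data known, and all 28 were found among the 20613 genes with values. They comprise 20 enzymes and 8 genes of SREBP control and sterol transfer. The cells were taken from cortices of wild-type males by magnetic isolation, and polyadenylated RNA was sequenced in 34 libraries. There were 4 libraries at postnatal day 7 (P7), 4 at P14, 3 each at P21, P28 and P60, 5 at 3 months (3m), 5 at 6m, 3 at 12m and 4 at 18m. No treatment or mutation was part of the design, so that age is the compared variable and P7 or 3m the reference. Whether libraries of an age come from different animals is not stated in the labels, and p-values therefore measure only the spread between these libraries, which may be technical.

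Cholesterol is made from acetyl-CoA in 3 stretches: the mevalonate arm gives isoprenoid units, squalene synthesis and closure give lanosterol, and a series of demethylations, reductions and isomerisations turns lanosterol into cholesterol. SREBPs are membrane-bound transcription factors. When membrane sterol is low, Scap escorts them from the endoplasmic reticulum to the Golgi, where the site-1 and site-2 proteases free the active part, while Insig proteins hold the complex back when sterol is high. Little lipoprotein cholesterol crosses the blood-brain barrier, so the brain makes its own, and astrocytes supply neurons with much of it through apolipoprotein E particles.

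Levels are given in transcripts per 1000000 (TPM), a gene's share of the transcripts in a library corrected for transcript length, which allows levels of different genes to be compared. TPM keep no read counts, so the depth of the libraries is unknown. Differences were tested with limma on log2(TPM + 1), with p-values adjusted by the Benjamini-Hochberg method over the 14590 genes tested, and "rose" and "fell" are used of genes with an adjusted p under 0.05. Folds are ratios of mean TPM. All 28 members were above 1 TPM in all 34 libraries, so the filter on low values removed none. The number of genes listed at 0 split the libraries into 3 ranges: 4109 to 4819 at P7, P14 and 18m and in 12m replicates 1 and 2 (14 libraries), 2854 to 3523 at P21, P28 and P60 (9 libraries), and 1155 to 1704 at 3m and 6m and in 12m replicate 3 (11 libraries). P7 and 18m therefore lie in the same range, while P60 and P7 do not, and in that comparison age and range cannot be told apart.

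The 8 astrocyte markers identified the cells at every age, with Slc1a3, the glutamate transporter GLAST, at 1870 TPM or more in every library. Transcripts of other cells were present and moved with age. From P7 to P60, 8 of 10 oligodendrocyte markers rose and 1 fell, their summed level going from 254.5 to 399.4 TPM at P7 to 1354 to 2484 TPM at P60. At P7 the mean of the oligodendrocyte list in log2(TPM + 1) was 2.52 to 2.76, and Mobp of that list was at 0 in all 4 libraries. Of 8 neuronal markers 6 rose, the sum going from 26.1 to 41.9 TPM to 280.4 to 562.1 TPM. Of 5 endothelial markers 4 fell, from 370.7 to 581.8 TPM to 97.4 to 216.8 TPM. Of 5 fibroblast markers 4 fell (median log2 change -1.45), from 268.5 to 478.9 TPM to 143.3 to 187.9 TPM. Of 5 oligodendrocyte precursor markers 2 fell and 1 rose, the sum going from 344.1 to 414.9 TPM to 141.7 to 232.9 TPM. Of 5 microglial markers 3 rose, from 64.6 to 79.9 TPM to 107.9 to 125.7 TPM, and of the 8 astrocyte markers 4 rose and 2 fell. In such bulk RNA, fewer cells of a type and less RNA per cell cannot be told apart.

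Promoters were examined because SREBPs bind the sterol regulatory element, often beside a CCAAT box that binds the factor NF-Y. RefSeq (GRCm38.p6) gave a window for 24 of the 28 members. In the 250 bases before the start, on both strands, the letters TCACNCCA, the core of the element, occurred in 3 of the 24 (Hmgcs1, Msmo1 and Srebf2) and in 4.2% of all 27025 genes with a window. CCAAT occurred in 20 of the 24 and in 37.5% of all genes. The motifs overlap in the letters CCA, so a single stretch can hold both. The stretches shown, 5′ to 3′ along the gene, are those of Hmgcs1, the enzyme with a match that fell, of Srebf2, which encodes SREBP-2 itself, and of Cyp51 and Msmo1, neighbours in the pathway whose levels went different ways. Capitals mark TCACNCCA or CCAAT, the latter read as ATTGG where it lies on the other strand. Cyp51 has a CCAAT 29 to 25 bases before its RefSeq start. This CCAAT lies past the end of the stretch shown, inside the gene as placed by GENCODE M21. The Hmgcs1 stretch is chr13:119690101-119690350 (plus strand), that of Srebf2 chr15:82147019-82147180 (plus strand), that of Cyp51 chr5:4104747-4104947 (minus strand), and the Msmo1 site chr8:64733734-64733763 (minus strand). The Msmo1 site lies before the RefSeq start but inside the gene as placed by GENCODE M21 (64718139 to 64733792), past its GENCODE start.
Hmgcs1: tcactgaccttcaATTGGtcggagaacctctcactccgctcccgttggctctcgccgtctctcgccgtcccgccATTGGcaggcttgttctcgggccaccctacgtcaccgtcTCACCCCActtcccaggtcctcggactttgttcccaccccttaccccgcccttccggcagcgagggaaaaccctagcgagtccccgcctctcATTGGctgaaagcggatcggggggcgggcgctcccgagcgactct
Srebf2: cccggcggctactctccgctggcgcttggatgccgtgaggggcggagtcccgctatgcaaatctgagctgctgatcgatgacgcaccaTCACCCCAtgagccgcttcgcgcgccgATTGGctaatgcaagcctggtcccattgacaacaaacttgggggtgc
Cyp51: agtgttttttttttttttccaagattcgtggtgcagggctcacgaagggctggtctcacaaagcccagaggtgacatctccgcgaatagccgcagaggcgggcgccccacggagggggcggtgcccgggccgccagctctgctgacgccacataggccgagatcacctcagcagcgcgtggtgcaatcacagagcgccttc
Msmo1: cactattcTCACTCCAtccgcgcagCCAAT
The core lies 137 to 130 bases before the RefSeq start of Hmgcs1, 162 to 155 before that of Srebf2 and 177 to 170 before that of Msmo1. A match is a description of the letters, and binding was not measured.

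Postnatal maturation was described by setting P60 against P7. Between these ages 18 of the 28 members fell and 1 rose, against 33.3% of all genes tested that fell and 19.5% that rose. Among the enzymes 16 of 20 fell and none rose, by a median log2 change of -0.80, where the median of all genes tested was -0.15. Among the 8 genes of control and transfer the median was 0.01, with 2 lower and 1 higher. The direction of the enzymes was known from an earlier look at these data. Levels were highest at P7 in 15 of the 20 enzymes and lowest at P60 in 15 of 20, over the means of the 9 ages. The share of all genes with these extremes was not counted, so these counts only describe the enzymes. After median-of-ratios rescaling, which brings the median of all genes to 0.01, 16 members fell and 4 rose.

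**Figure D1:**
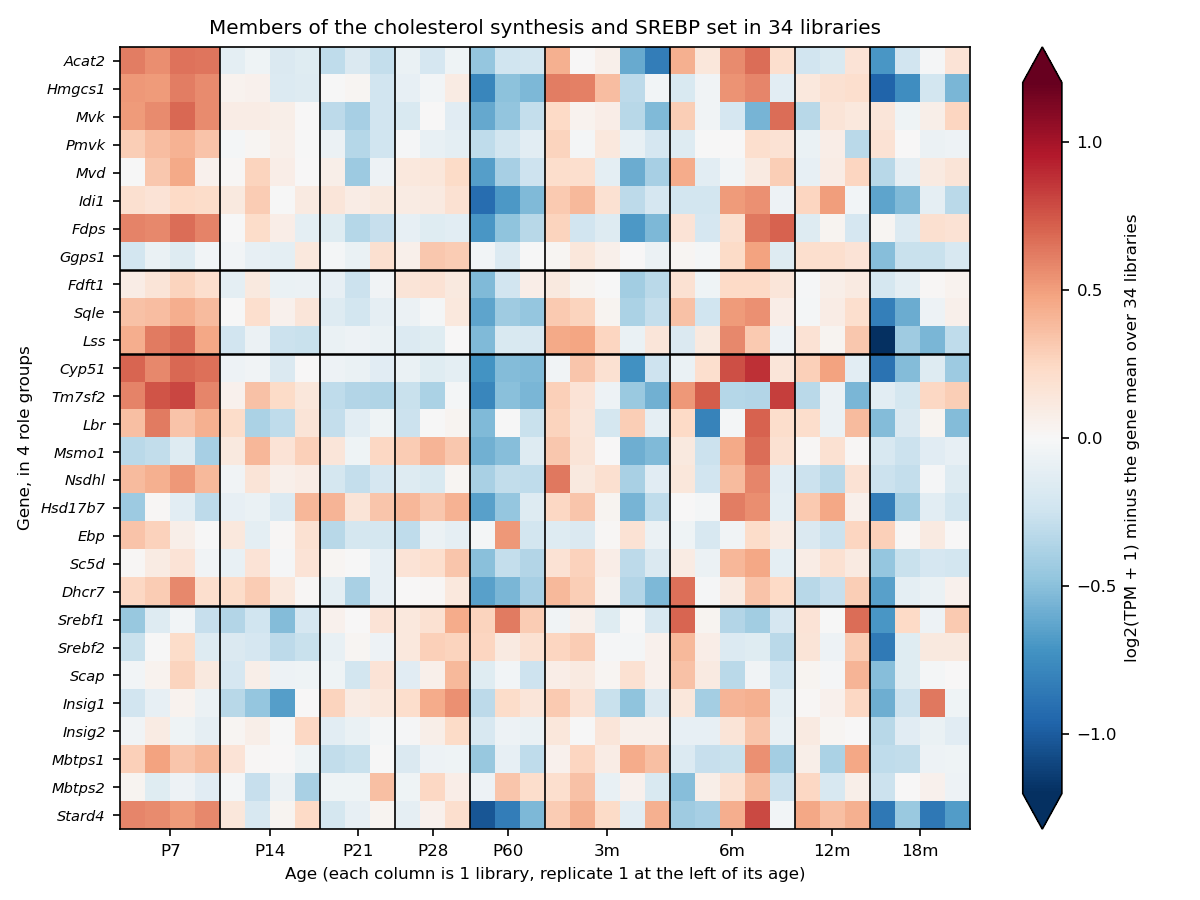
Heat map of the 28 members (rows, ordered by role) over the 34 libraries (columns, ordered by age), coloured by log2(TPM + 1) relative to each gene's own mean over libraries. Of the 20 enzyme rows 15 have their highest age mean at P7 and 15 their lowest at P60. The share of all genes with these extremes was not counted. Within 3m, replicates 4 and 5 are lower than replicates 1 to 3 in most enzyme rows.

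In the mevalonate arm 7 of 8 genes fell (median log2 change -0.92). Hmgcs1, the cytosolic HMG-CoA synthase that opens the arm (chromosome 13, 119690379 to 119708260, GRCm38), stood at 313, 310, 334 and 323 TPM in the 4 P7 libraries and at 126, 154 and 150 TPM in the 3 P60 libraries. The P60 libraries were thus all below the P7 libraries, 2.23-fold lower in the mean (log2 change -1.16, SE 0.19, adjusted p = 5.8e-05). Fdps, the farnesyl diphosphate synthase that stands at the branch to other isoprenoids (chromosome 3, 89093588 to 89101959), went from 448, 442, 474 and 447 TPM to 182, 212 and 235 TPM. It was 2.16-fold lower with no overlap (log2 change -1.12, SE 0.17, adjusted p = 3.2e-05). Idi1, the isomerase that makes dimethylallyl diphosphate, went from 184, 180, 189 and 186 TPM to 84.9, 98.9 and 111 TPM, 1.88-fold lower. The P7 values of Idi1 lay between 180 and 189 TPM and the P60 values all lay under them (log2 change -0.91, SE 0.17, adjusted p = 0.000229). Mvk, mevalonate kinase, fell by 1.04 on the log2 scale, Acat2, the cytosolic thiolase, by 0.92, Mvd, the decarboxylase, by 0.64 and Pmvk, phosphomevalonate kinase, by 0.57. Ggps1, which makes geranylgeranyl diphosphate for protein prenylation and not for sterol, stood at 36.0 ± 2.08 TPM in the 4 P7 libraries (mean ± SD) and at 37.5 ± 2.31 TPM in the 3 P60 libraries and was not called. After rescaling Ggps1 passed the test as higher (log2 change 0.23, adjusted p = 0.0174).

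All 3 genes that carry farnesyl units to lanosterol fell. Sqle, squalene epoxidase, an oxygen-requiring step under sterol control (chromosome 15, 59315077 to 59331192), was at 222, 225, 236 and 226 TPM at P7 and at 112, 129 and 126 TPM at P60. Lss, the cyclase that forms lanosterol (chromosome 10, 76531588 to 76557138), was at 22.2, 25.4, 26.4 and 22.7 TPM at P7 and at 10.9, 14.1 and 13.99 TPM at P60. Both were 1.86-fold lower and neither overlapped between the ages (log2 changes -0.89 and -0.85, SE 0.18 and 0.17, adjusted p = 0.00032 and 0.000341). Fdft1, squalene synthase, fell less, by 0.40 on the log2 scale from 279.5 ± 14.6 TPM (mean ± SD of 4 libraries) to 214.1 ± 44.9 TPM (3 libraries). That call was lost after rescaling (adjusted p = 0.142) and without P60 replicate 1 (0.0948).

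Of the 9 genes from lanosterol to cholesterol 6 fell and 3 were not called. Tm7sf2, a sterol C14 reductase (chromosome 19, 6062821 to 6068373), showed the largest change, from 127, 142, 146 and 126 TPM at P7 to 48.0, 58.8 and 56.8 TPM at P60. It was 2.48-fold lower (log2 change -1.30, SE 0.22, adjusted p = 0.000109). Cyp51, the lanosterol 14-demethylase (chromosome 5, 4081145 to 4104746), went from 142, 130, 141 and 138 TPM to 52.6, 60.3 and 60.1 TPM, 2.39-fold lower (log2 change -1.25, SE 0.20, adjusted p = 5.3e-05). Neither gene overlapped between the ages. Dhcr7, which reduces 7-dehydrocholesterol, fell by 0.86, Nsdhl, a sterol dehydrogenase and decarboxylase, by 0.76 and Lbr, a nuclear envelope protein that is also a C14 reductase, by 0.71 on the log2 scale. The call for Lbr was lost without P60 replicate 1 (adjusted p = 0.063). Sc5d, the C5 desaturase, went from 190, 202, 212 and 184 TPM to 133, 155 and 148 TPM (log2 change -0.44, SE 0.13, adjusted p = 0.00523), and this call was lost after rescaling (adjusted p = 0.0707). Ebp, the sterol isomerase, stood at 42.9 ± 4.89 TPM (mean ± SD of 4 libraries) and 41.5 ± 11.8 TPM (3 libraries), and Hsd17b7, a ketosteroid reductase, 18.7 ± 2.72 and 16.1 ± 3.04 TPM, with neither called.

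**Figure D2:**
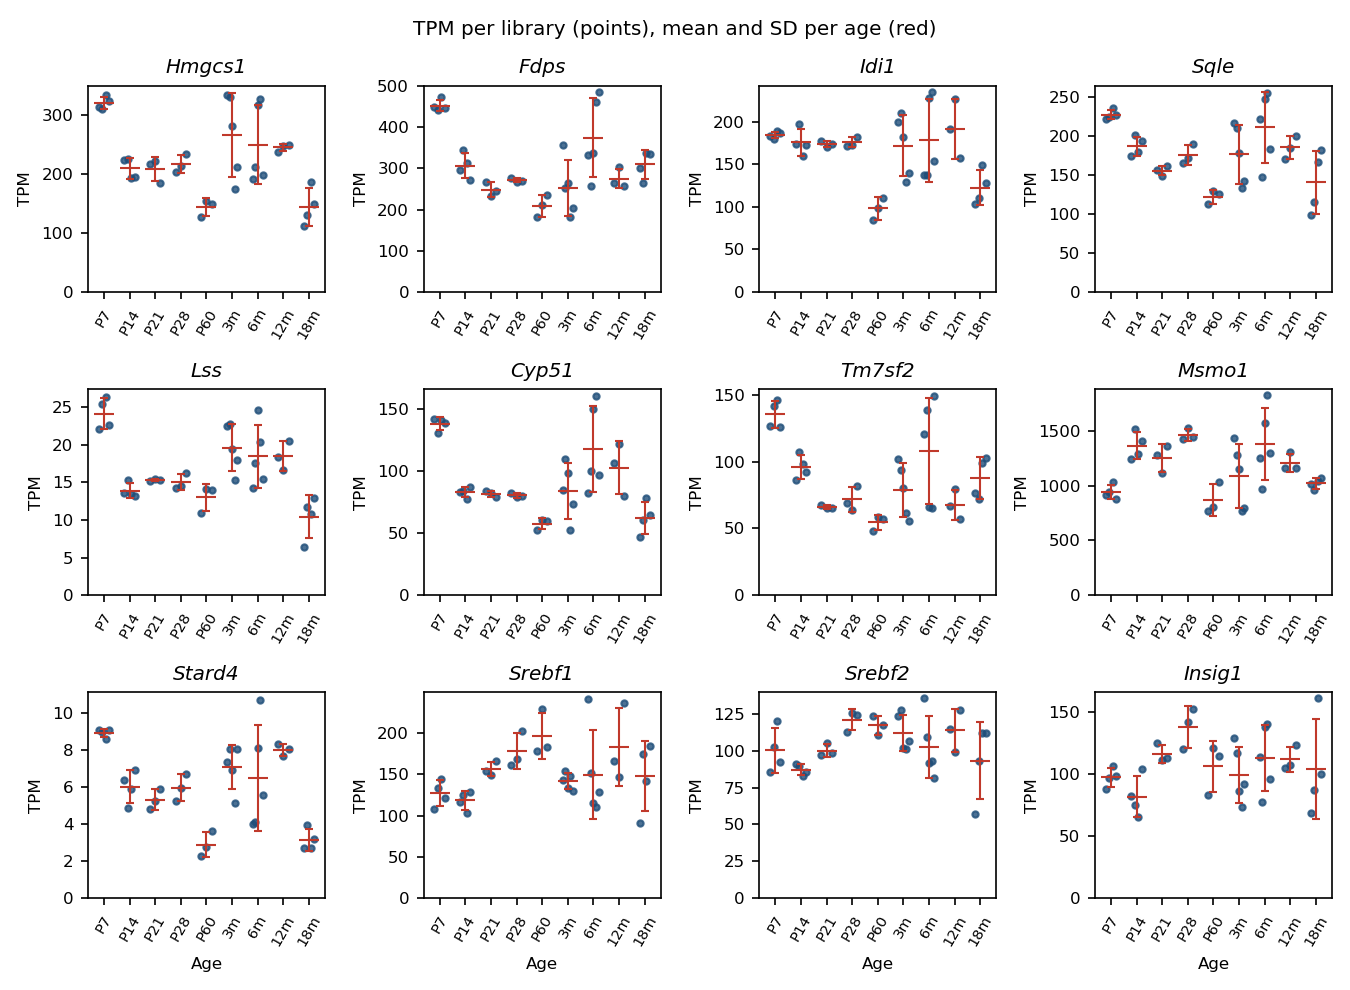
Level in TPM of members described with every library's value, by age from P7 to 18m. Points are libraries, and red marks with bars are the mean and SD of each age. Hmgcs1 and Stard4 drop from P7 to P60, stand higher at 3m and are low again at 18m, Cyp51 drops from P7 to P60 with overlapping libraries at P60, 3m and 18m, while Srebf2 and Insig1 keep overlapping values between P7 and P60.

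Of the 8 genes of SREBP control and sterol transfer, Mbtps1 and Stard4 fell, Srebf1 rose and 5 were not called. Srebf2, whose product drives most sterol synthesis genes (chromosome 15, 82147181 to 82205379), was at 85.3, 102, 120 and 92.5 TPM at P7 and at 123, 111 and 117 TPM at P60. The ages overlapped and the log2 change was 0.23, with a 95% interval of -0.10 to 0.57 (adjusted p = 0.235), so a fall of the size seen in Hmgcs1 lies outside that interval. After rescaling Srebf2 passed the test as higher (0.41, adjusted p = 0.0177). Srebf1, the SREBP gene more tied to fatty acid synthesis (chromosome 11, 60199089 to 60222581), rose from 108, 133, 145 and 122 TPM to 178, 229 and 183 TPM, with every P60 library above every P7 library. The rise was 1.55-fold (log2 change 0.63, SE 0.21, adjusted p = 0.0136). That call was lost without P60 replicate 2 (adjusted p = 0.074) and with the oligodendrocyte marker mean as a covariate (0.63, SE 0.26, adjusted p = 0.064), where the estimate stayed the same.

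Insig1, itself a target of SREBPs and a retention factor for Scap (chromosome 5, 28071363 to 28078662), was at 88.3, 97.2, 107 and 98.7 TPM at P7 and at 83.2, 122 and 115 TPM at P60. Its values overlapped (log2 change 0.11, SE 0.22, adjusted p = 0.691). Insig2, its paralog, Scap and the site-2 protease gene Mbtps2 were not called either, at log2 changes of -0.09, -0.24 and 0.24, although Mbtps2 passed as higher after rescaling (0.39, adjusted p = 0.0294). Mbtps1, the site-1 protease (chromosome 8, 119508156 to 119558735), fell from 27.5, 31.7, 28.5 and 29.7 TPM to 16.1, 20.9 and 18.0 TPM with no overlap (log2 change -0.66, SE 0.17, adjusted p = 0.00244). With the oligodendrocyte covariate it was not called (-0.42, SE 0.20, adjusted p = 0.102). Stard4, a soluble sterol carrier that moves cholesterol between membranes, had the largest fold of the 28 members, from 9.08, 8.95, 8.60 and 9.05 TPM to 2.29, 2.79 and 3.61 TPM. It was 3.08-fold lower (log2 change -1.36, SE 0.20, adjusted p = 2.4e-05).

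The markers of other cells listed above moved along with these changes. With the oligodendrocyte marker mean as a covariate 17 members were called between P60 and P7, all lower, with Srebf1, Lbr and Mbtps1 lost and Hsd17b7 gained (log2 change -0.69, adjusted p = 0.0136). The part of neuronal, endothelial, fibroblast, microglial and oligodendrocyte precursor transcripts in the result was not tested.

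**Figure D3:**
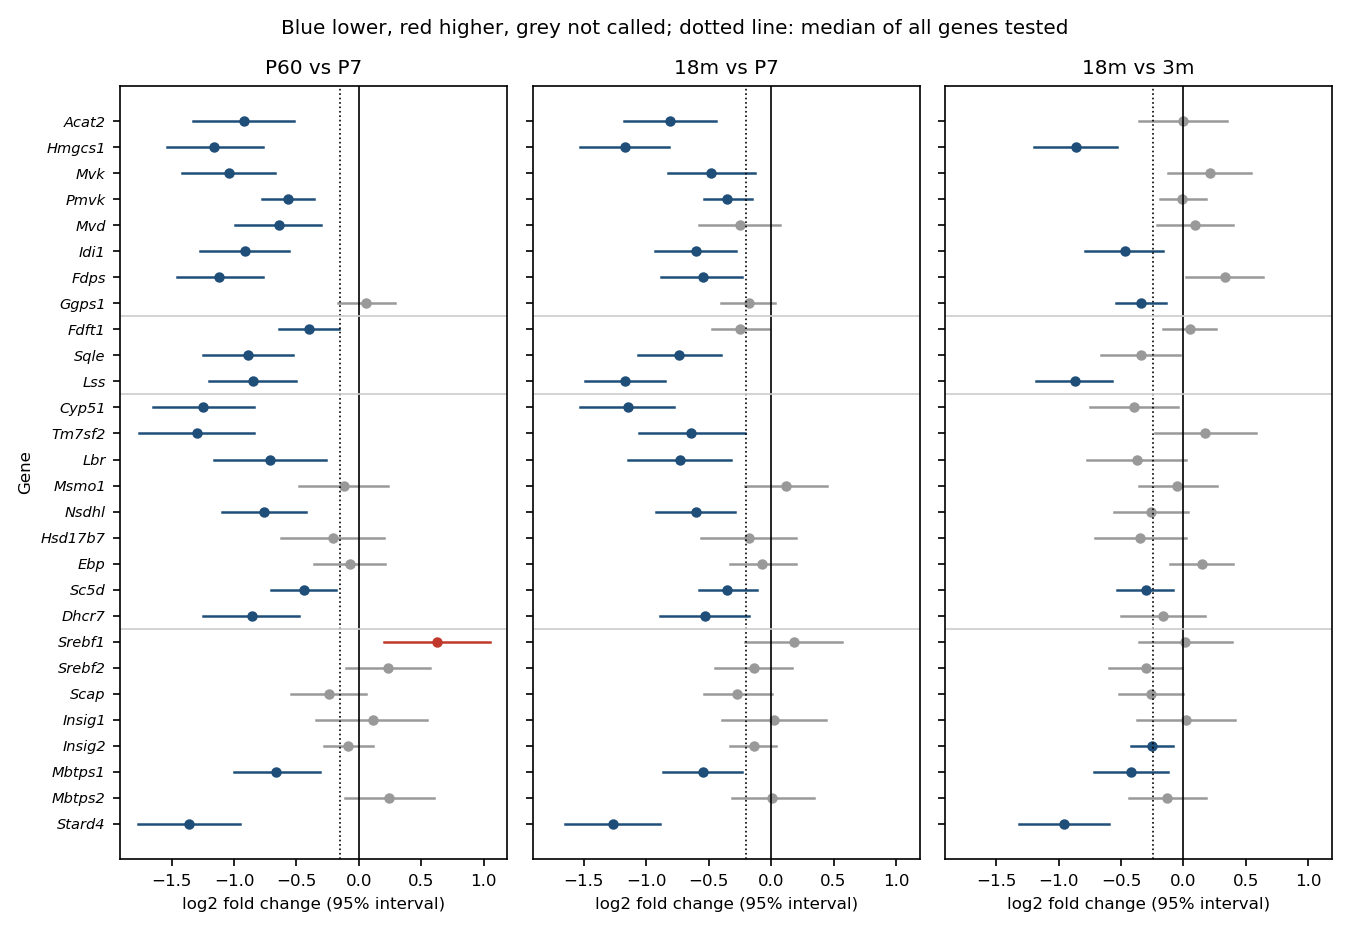
Log2 changes with 95% intervals for the 28 members, by role, in P60 vs P7, 18m vs P7 and 18m vs 3m. Blue points passed the limma test as lower and red points as higher, at an adjusted p under 0.05, and grey points were not called. The dotted line is the median of all genes tested. Of the 20 enzymes 16 passed as lower at P60 and 14 at 18m against P7, the P60 estimates of all members running from -1.36 for Stard4 to 0.63 for Srebf1, and fewer members pass between 18m and 3m.

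Part of the change was present at P14. P14 lies in the same range of genes at 0 as P7, and 7 members fell and 1 rose from P7 to P14, against 8.57% and 3.28% of all genes. The falls were in Acat2, Hmgcs1, Mvk, Pmvk and Fdps of the mevalonate arm, in Lss and in Cyp51. Lss, from its P7 values to 13.6, 15.3, 13.4 and 13.2 TPM, had the largest change (log2 change -0.75, SE 0.16, adjusted p = 0.00439). The largest fall in the mevalonate arm was -0.74 on the log2 scale, and Cyp51 stood at 83.3, 84.3, 77.1 and 87.2 TPM (-0.73, SE 0.18, adjusted p = 0.0143). None of the 8 control and transfer genes was called by limma at this step, and Mbtps1 and Stard4 had unadjusted p of 0.0384 and 0.0106. After rescaling 4 members were lower and 3 higher. The count depended on single libraries: it was 3 without P7 replicate 4 or P14 replicate 4, 4 without P7 replicate 1 or 3, and 5 without P14 replicate 3. A fit of these 2 ages alone called 15. Of the markers, 5 of 8 astrocyte genes were higher and 1 lower at P14, and 2 of 8 neuronal genes were higher. Of 5 oligodendrocyte precursor genes 2 were lower, the sum going from 344.1 to 414.9 TPM to 158.0 to 233.9 TPM. No marker of the other lists was called by limma, and the part of other cells at this step was not tested.

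Msmo1, the sterol C4 methyl oxidase that acts after Cyp51 and the C14 reductases (chromosome 8, 64718139 to 64733792), was the most abundant member at every age and went the other way. It is described here because its values stood out, outside the rule for named genes. Its levels were 918, 939, 1033 and 873 TPM at P7 and 1246, 1520, 1290 and 1407 TPM at P14, with no overlap (log2 change 0.54, SE 0.16, adjusted p = 0.0313). That call was lost without each of P7 replicates 1, 2 and 4 and P14 replicates 2, 3 and 4 (adjusted p = 0.0522 to 0.0903). At P28 it stood at 1421, 1527 and 1443 TPM and at P60 at 769, 806 and 1034 TPM, which overlaps P7 (log2 change -0.12, SE 0.17, adjusted p = 0.565).

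Within a library, Msmo1 was 6.82 ± 0.501 times Cyp51 (SD, n = 4) at P7 and 16.5 ± 1.28 times (SD, n = 4) at P14. The ratio was 15.1 ± 1.95 (SD, n = 3) at P60 and 16.9 ± 3.47 (SD, n = 4) at 18m, and such ratios do not change with the scaling of a library. The P7 libraries, at 6.31 to 7.30, lay below every library of any other age, the lowest of which was 9.62 at 6m. Each of the 3 comparisons with P7 gave p = 0.0286 in an exact two-sided permutation test, the smallest the sizes allow, and an adjusted p of 0.0571 over the 12 ratio tests, none of which passed. Msmo1 made up 24.9% ± 0.713 (SD, n = 4) of the summed TPM of the 20 enzymes at P7 and 38.2% ± 1.25 (SD, n = 4) at P14. The sum of the 20 enzymes went from 3770 ± 178 to 3573 ± 231 TPM, while that of the other 19 went from 2830 ± 114 to 2208 ± 116 TPM.

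**Figure D4:**
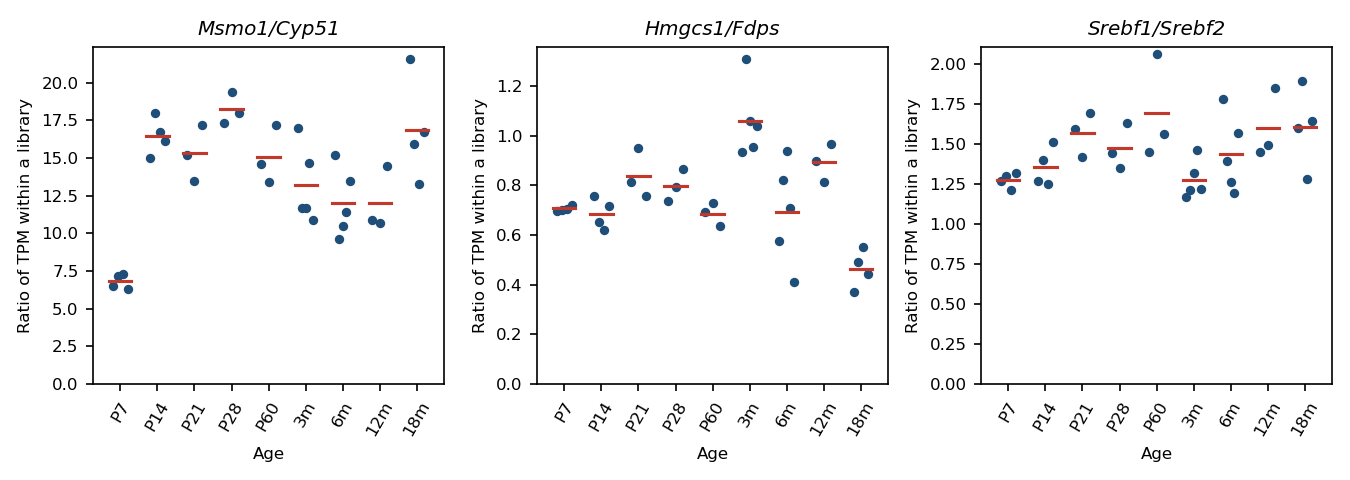
Ratios of TPM within a library by age for Msmo1 to Cyp51, Hmgcs1 to Fdps and Srebf1 to Srebf2; points are libraries and bars the age means. The P7 libraries lie at 6.31 to 7.30 for Msmo1 to Cyp51, and the 18m libraries lie at 0.369 to 0.550 for Hmgcs1 to Fdps, under the 3m libraries at 0.936 to 1.31.

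The middle weeks brought little that passed. From P14 to P21 none of the 28 members was called by limma, where 13.2% of all genes were, with 4 members at an unadjusted p under 0.05, and these ages lie in different ranges of genes at 0. From P21 to P28 none was called either, where 0.0206% of all genes were, with 1 at an unadjusted p under 0.05, and 26 of 28 estimates were positive (the median of all genes was 0.11). Of all members 10 were higher at P28 than at P21 with no overlap, against 17.2% of all genes. From P28 to P60, within the middle range, 4 members fell and none rose, where 0.905% of all genes fell and 0.212% rose: Idi1, Msmo1, Sc5d and Stard4, at log2 changes of -0.84 ± 0.19, -0.76 ± 0.19, -0.61 ± 0.13 and -0.85 ± 0.22 (SE; adjusted p = 0.0229, 0.0368, 0.0226 and 0.0476). Idi1 stood at 172, 174 and 183 TPM at P28, close to its level at P7, while Cyp51 was already at 82.3, 78.7 and 80.0 TPM at P28. The 4 calls did not hold without single libraries: none was left without P28 replicates 2 or 3 or P60 replicates 1 or 2, 1 without P60 replicate 3 and 2 without P28 replicate 1, and none after rescaling, while a fit of these 2 ages alone called 10.

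From P60 to 3m 6 members rose and none fell, against 8.26% of all genes that rose and 1.93% that fell, across 2 ranges of genes at 0 that cannot be told apart from age here. Stard4 rose from its P60 values to 7.31, 8.04, 6.90, 5.14 and 8.03 TPM (log2 change 1.05, SE 0.19, adjusted p = 0.000687). Hmgcs1 rose to 333, 331, 281, 174 and 212 TPM (0.85, SE 0.18, adjusted p = 0.00286) and Idi1 to 200, 211, 182, 129 and 140 TPM (0.79, SE 0.17, adjusted p = 0.00269). All 3m libraries of these 3 genes lay above all P60 libraries. Lss, Mbtps1 and Sc5d also rose (0.55, 0.52 and 0.39), but these calls were each lost without several single libraries, and the count was 3 without P60 replicate 1, P60 replicate 3 or 3m replicate 2. After rescaling, which brings the median of all genes from 0.12 to -0.03, 3 members rose and 1 fell. Of the markers, 4 of 10 oligodendrocyte genes were lower at 3m (median log2 change -1.50), and 3 of 5 fibroblast (1.35) and 2 of 5 endothelial genes (0.97) were higher. Of 8 astrocyte genes 2 were lower and 1 higher (0.18), their summed level being 19850 to 20833 TPM at P60 and 10691 to 17986 TPM at 3m. With the oligodendrocyte marker mean as a covariate 9 members rose and none fell, and the part of the other lists was not tested. From 3m to 6m Acat2 and Fdps rose (0.59 and 0.57, SE 0.16 and 0.14, adjusted p = 0.0231 and 0.0141), where 2.07% of all genes rose and 7.25% fell. The count was 0 without 3m replicate 5 and in a fit of these 2 ages alone, 1 without 3m replicate 4, and 4 without 3m replicate 1, 6m replicate 2 or 6m replicate 4. No member was called by limma from 6m to 12m, where 0.0548% of all genes were, and 4 had an unadjusted p under 0.05.

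At 18m most enzymes were again below P7. Against P7, in the same range of genes at 0, 16 of 28 members fell and none rose, where 24.9% of all genes fell and 4.67% rose. The enzyme median was -0.54, where that of all genes was -0.20, and 14 of 20 enzymes fell. This comparison shares its P7 libraries with that of P60, so the 2 are not independent. Of the markers, 3 of 10 oligodendrocyte genes were higher and 3 of 5 fibroblast genes lower at 18m than at P7. Of 8 astrocyte genes 2 were lower and 2 higher. In addition 1 of 5 precursor and 1 of 5 microglial genes were higher and 1 of 5 endothelial genes was lower. With the oligodendrocyte marker mean as a covariate 17 members fell and none rose, and the part of the other marker lists was not tested. Lss, at 6.45, 11.8, 10.8 and 12.9 TPM, was 2.31-fold lower (log2 change -1.17, SE 0.16). Hmgcs1, at 111, 130, 186 and 148 TPM, was 2.22-fold lower (-1.17, SE 0.17), and Cyp51, at 46.7, 60.4, 78.3 and 64.3 TPM, 2.21-fold lower (-1.15, SE 0.18). Stard4, at 2.71, 3.95, 2.699 and 3.21 TPM, was 2.84-fold lower (-1.27, SE 0.19). These 4 genes showed no overlap with P7 and passed in every alternative setting run for this comparison.

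Other members were closer to their P7 levels at 18m. Fdps stood at 302, 265, 338 and 335 TPM and Tm7sf2 at 76.4, 71.9, 99.2 and 103 TPM, both below P7 with no overlap (log2 changes -0.55 and -0.64, SE 0.16 and 0.21, adjusted p = 0.0107 and 0.0228). Sqle, at 98.2, 115, 167 and 182 TPM, and Idi1, at 103, 110, 149 and 128 TPM, also fell (-0.74 and -0.60, SE 0.16 and 0.16). Sc5d, at 137, 157, 164 and 162 TPM, fell by 0.35 and Mbtps1, at 17.9, 18.1, 21.4 and 21.6 TPM, by 0.55 on the log2 scale. After rescaling, which brings the median of all genes from -0.20 to 0.03, 7 members fell: Mvk, Pmvk, Idi1, Fdps, Tm7sf2, Nsdhl, Sc5d, Dhcr7 and Mbtps1 were no longer called. After quantile normalization 9 fell. Mvk, Tm7sf2, Sc5d and Dhcr7 also lost their call without 18m replicate 1 (adjusted p = 0.0605, 0.0696, 0.0926 and 0.116), and each without some other single libraries. Srebf1, at 90.6, 175, 142 and 184 TPM, Srebf2, at 56.8, 92.6, 112 and 112 TPM, and Insig1, at 68.7, 87.0, 161 and 100 TPM, were not called. Their lowest value was in 18m replicate 1 in each case.

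The comparison of 18m with 3m describes aging in the adult. Of 28 members 8 fell and none rose, where 33.4% of all genes fell and 4.16% rose, and the median of the members, -0.25, was near that of all genes, -0.24. Those that fell were Hmgcs1, Idi1, Ggps1, Lss, Sc5d, Insig2, Mbtps1 and Stard4. Stard4 was 2.25-fold lower with no overlap (log2 change -0.96, SE 0.18, adjusted p = 0.000226), and Lss was 1.88-fold lower, from 22.5, 22.8, 19.5, 15.3 and 18.0 TPM, also with no overlap (-0.87, SE 0.15, adjusted p = 0.000113). Hmgcs1 was 1.85-fold lower (-0.86, SE 0.17, adjusted p = 0.00033), but the highest 18m library, at 186 TPM, lay above the lowest 3m library, at 174 TPM. After rescaling these 3 genes stayed called and Fdps (0.58), Fdft1 (0.30) and Ebp (0.39) rose, giving 3 lower and 3 higher, with the all-gene median at -0.02. Without 18m replicate 1 the same 3 fell and the calls of Idi1, Ggps1, Sc5d, Insig2 and Mbtps1 were lost (adjusted p = 0.0777, 0.0538, 0.135, 0.102 and 0.0879). Sqle, from 217, 210, 178, 134 and 143 TPM at 3m, and Cyp51, from 84.5, 110, 98.8, 52.3 and 73.1 TPM, were not called (-0.34 and -0.40, SE 0.15 and 0.18, adjusted p = 0.0782 and 0.0738) and passed without some single libraries.

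Only 12m links the ranges of genes at 0 among the adult ages, and with range as a term none of the 28 members was called between 18m and 3m by limma. The estimates for Stard4 (-0.95, SE 0.37) and Hmgcs1 (-0.82, SE 0.35) stayed near those without the term while their errors grew, and that of Mbtps1 turned to 0.20, SE 0.29. Marker lists also differed between 18m and 3m. Of the 8 astrocyte markers 5 were lower and 2 higher at 18m (median log2 change -0.50), their summed level being 16149 to 21273 TPM at 18m and 10691 to 17986 TPM at 3m. Of 8 neuronal markers 6 were lower (median -1.97), as were 3 of 5 fibroblast markers (-0.89) and 2 of 5 microglial markers (-0.44). Of 5 oligodendrocyte precursor markers 2 were higher, and no oligodendrocyte or endothelial marker was called by limma. With the oligodendrocyte covariate 9 members fell, Cyp51 being gained. The part of the other marker lists in the result was not tested.

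From 12m to 18m 8 members fell and none rose, where 18.6% of all genes fell and 1.52% rose: Hmgcs1, Idi1, Ggps1, Lss, Cyp51, Hsd17b7, Sc5d and Stard4. Stard4 went from 8.29, 7.65 and 8.04 TPM at 12m to its 18m values, all of them under 4 TPM (log2 change -1.13, SE 0.20, adjusted p = 0.00174). Without 12m replicate 3, which leaves libraries of 1 range of genes at 0, 7 fell. The count was 4 without 12m replicate 2 or 18m replicate 1 and 5 without 12m replicate 1, and 4 after rescaling. In a limma fit of these 2 ages alone 0 members and 0 of all genes were called. Of 8 astrocyte markers 5 were also lower at 18m (median -0.49), as were 2 of 8 neuronal markers (-1.26), and their part was not tested.

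The ratio of Hmgcs1 to Fdps had no single course over the ages. At P7 it was 0.707 ± 0.0105 (SD, n = 4), at P60 0.686 ± 0.0464 (SD, n = 3), and 1.06 ± 0.152 (SD, n = 5) at 3m against 0.463 ± 0.0766 (SD, n = 4) at 18m. At 6m it was 0.692 ± 0.207 (SD, n = 5), with libraries from 0.41 to 0.939, and at 12m 0.893 ± 0.0762 (SD, n = 3). The libraries of 18m and 3m did not overlap, and the difference did not pass (exact two-sided permutation p = 0.00794, adjusted p = 0.0571 over the 12 ratio tests). The ratio of Srebf1 to Srebf2 went from 1.27 ± 0.049 at P7 (SD, n = 4) to 1.69 ± 0.328 at P60 (SD, n = 3), without overlap (exact two-sided permutation p = 0.0286, adjusted p = 0.0571). These ratios were chosen after the values had been seen.

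Over all ages, the limma F test called 21 of the 28 members, where 63.6% of all genes were called. The 7 that were not called were Lbr, Ebp, Srebf2, Scap, Insig1, Insig2 and Mbtps2, of which 5 are control genes. Stard4 (adjusted p = 1.68e-05), Lss (4.14e-05) and Hmgcs1 (6.58e-05) had the smallest p of the members. Mean levels of Insig2 ran from 47.8 ± 3.64 TPM at 18m to 57.7 ± 5.08 at P28, those of Scap from 27.5 ± 4.36 at 18m to 34.2 ± 5.90 at 12m, and those of Mbtps2, the least abundant member, from 3.94 ± 0.588 at P14 to 5.31 ± 0.855 at P60.

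At some ages, most enzymes of a library lay on the same side of their age means. At 3m, replicates 1, 2 and 3 had 18, 18 and 19 of the 20 enzymes above the age mean, while replicates 4 and 5 had 2 and 0. The sum of the 20 enzymes ran there from 2397 to 4071 TPM. In these libraries the oligodendrocyte marker mean in log2(TPM + 1) was 4.80, 5.003 and 4.11 in replicates 1 to 3 and 2.67 and 3.55 in replicates 4 and 5. In the same order the precursor marker mean was 4.12, 3.83, 3.99, 5.62 and 4.81, and the astrocyte marker mean was 10.175, 10.31, 10.231, 9.825 and 9.954. At 18m, replicates 1 and 2 had 3 and 5 enzymes above the mean and replicates 3 and 4 had 18 and 17, with oligodendrocyte means of 1.74, 3.76, 4.94 and 5.60. The precursor means of these 18m libraries were 4.597, 5.45, 5.634 and 5.624, and the astrocyte means 9.635, 10.041, 9.875 and 10.025. At P60 replicates 1 to 3 had 1, 13 and 19, with oligodendrocyte means of 5.064, 5.436 and 5.378. Libraries with most enzymes on 1 side were not seen at every age: the 12m libraries had 6, 13 and 11 and the P21 libraries 14, 7 and 11. At 6m, replicates 1 to 5 had 8, 1, 12, 17 and 7. Their oligodendrocyte means were 2.485, 3.655, 4.501, 2.786 and 3.798, and their astrocyte means 10.479, 10.596, 10.583, 10.242 and 9.866. Their precursor means were 4.981, 4.245, 4.242, 4.895 and 4.386. The share of all genes above their age means in these libraries was not counted. The part of other cells, or of a shift common to all genes of a library, in these deviations was not tested.

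Related pathways were counted between P7 and P60 in the same way, where 33.3% of all genes fell, 19.5% rose and the median was -0.15. A further 5 genes of sterol synthesis outside the set had 3 tested, of which 2 fell and none rose (median -0.70). Of 8 genes that control the turnover of SREBP regulators and sterol enzymes, 4 fell and 1 rose (median -0.35). Erlin2, an endoplasmic reticulum membrane protein of that machinery, went from a mean of 37.2 ± 3.67 TPM in 4 libraries (SD) to 22.8 ± 2.13 TPM in 3 libraries, 1.63-fold lower (adjusted p = 0.0013), and Tmem97, a sterol-responsive membrane protein, was 1.44-fold lower (adjusted p = 0.00113). Of the 6 genes of lipoprotein uptake and storage 5 were tested, and 1 rose, Nr1h3, which encodes the oxysterol receptor LXR alpha, 1.77-fold (16.8 ± 3.38 to 29.7 ± 2.22 TPM, adjusted p = 0.00259).

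Of 14 fatty acid synthesis genes tested, which respond to SREBP-1, 4 fell and 2 rose (median -0.19), shares near those of all genes. Thrsp, a lipogenic regulator, rose 2.47-fold from 107.1 ± 12.0 TPM in 4 libraries (mean ± SD) to 264.8 ± 16.2 TPM in 3 libraries (log2 change 1.30, SE 0.15, adjusted p = 2.52e-06). Elovl6, a long-chain elongase, was 1.76-fold lower (adjusted p = 0.00188). Of the 10 genes of the isoprenoid branches, which use the products of the mevalonate arm, 5 fell and 1 rose (median -0.25). Rabggta, a subunit of the Rab prenyl transferase, was 1.41-fold lower and Coq2, of ubiquinone synthesis, 1.47-fold higher (adjusted p = 0.00225 and 0.00283).

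Between 3m and 18m the fatty acid list had 7 genes lower and 1 higher of 14 (median -0.39), and the higher one was Thrsp, at 1.85-fold (adjusted p = 3.16e-05). The turnover list had 4 lower of 8 (median -0.25), the isoprenoid list 3 lower of 10 (-0.18), the uptake list 1 lower and 1 higher of 5 (-0.08) and the further sterol genes 2 lower of 3 (-0.42). Set against the 33.4% of all genes that fell, these counts are a description of the lists.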

How the data were processed

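Polyadenylated RNA of 34 libraries was analysed. The deposited values are TPM, made by the authors, 1 column per library, each summing to 1000000 over 20613 genes. Build mm10 and the tools DESeq2 1.36.0, RSEM 1.2.28, STAR 2.7.1a and Trim Galore 0.6.4 appear, without roles, in the submitters' processing notes. Per the labels' protocols, cDNA was made with the SMART-Seq v4 kit. Depth is unknown, and TPM sum to a fixed total, so a rise of abundant genes lowers the others.

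The 14590 genes that reached 1 TPM in 3 or more libraries were fitted with limma 3.58.1 (R 4.3.3, statmod 1.5.0, trend and robust settings) on log2(TPM + 1), with 1 mean per age over all libraries. A pseudocount of 1 understates changes of low genes. The method was tested on simulated data. Positions are from GENCODE M21. Members and lists were chosen with earlier results of these data known. Every library's value is given for the 2 largest called changes per role in P60 vs P7 and in 18m vs 3m and for Srebf1, Srebf2 and Insig1, and the 2 called genes of smallest p are named in each further list. Those of the further sterol list are not reported here. Same-numbered libraries did not deviate together (mean correlation 0.0023 over 119 pairs). Alternatives tried were no filter, a 5 TPM filter, a pseudocount of 0.1, 2 normalizations, a replicate block, covariates, fits of 2 ages and leaving out libraries. Ratio tests were chosen after the values were seen.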

Additional observations from a re-analysis of the deposited data

Results flagged for a closer look

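In 140 groups of 4 or 5 libraries, each a member at 1 age, 3 groups held a library set apart from the others. That is fewer than the about 1 in 20 groups that chance gives. The gap is judged against the range of the group, so it can be small in TPM, as for Mvk. Mvk in P14 replicate 4 was at 55.2 TPM, below the other P14 libraries at 58.08 to 58.66 TPM. Hsd17b7 in P14 replicate 4 was at 29.06 TPM, above the others at 19.32 to 20.47 TPM. Mbtps1 in 6m replicate 4 was at 33.15 TPM, above the others at 16.63 to 19.84 TPM. That 6m library also had 17 of 20 enzymes above the age mean.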

How the results depend on the processing

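With no filter, the 5 TPM filter and the 0.1 pseudocount, counts of members called stayed within 1.5 times of those reported. Other settings moved some. Median-of-ratios rescaling gave 7 for 18m vs P7, 1 for P21 vs P14, 0 for P60 vs P28, 4 each in 6m vs 3m and 18m vs 12m. Quantile normalization gave 1 for P21 vs P14, 9 for 18m vs P7 and 4 for 18m vs 3m. The oligodendrocyte covariate gave 1 for P21 vs P14 and 4 for 6m vs 3m, and the range term 0 for 18m vs 3m, where Mbtps1 turned to 0.20. Fits of only the 2 ages gave 15 for P14 vs P7, 9 for P21 vs P14, 10 for P60 vs P28, 0 each in 6m vs 3m and 18m vs 12m. The cause of these differences was not tested. Leaving out each library in turn gave 17 to 19 for P60 vs P7, 12 to 16 for 18m vs P7, 3 to 11 for 18m vs 3m, 3 to 7 for P14 vs P7, 0 to 2 for P60 vs P28, 3 to 8 for 3m vs P60, 0 to 4 for 6m vs 3m, 4 to 9 for 18m vs 12m and 0 elsewhere. With a replicate block, which the data do not call for since the numbers did not pair libraries, 19 members were called in P60 vs P7, 16 in 18m vs P7, 9 in 18m vs 3m, and 21 in the F test. Of 4900 values of single members, 4626 stayed on the same side of the threshold, 186 lost a call, 87 gained one and 1 that had been called changed sign. Changes of sign in members not called in either setting were not counted.

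Groups of 3 to 5 libraries, unknown depth and markers of other cells that moved with age limit the precision. P60 vs P7, P21 vs P14 and 3m vs P60 cross ranges of genes at 0, and there age and range cannot be told apart. The comparison of 18m with 3m also crosses ranges, linked only through 12m, and with range as a term none of its members was called by limma. Those of 12m with 6m and of 18m with 12m cross ranges in part.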
